A study of Mus musculus with 11 samples.

Results

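The genes examined here are Gjb2, Gjb6, Gjb5 and Gja1, 4 of the 15 connexin genes and of the 20352 genes analysed. They encode connexin 26, connexin 30, connexin 31.1 and connexin 43, proteins of gap junctions found in the epidermis. They were read from all probesets annotated with 1 of these symbols and no other gene, 17 in all, namely 4 for Gjb2, 5 for Gjb6, 4 for Gjb5 and 4 for Gja1. A gene's level is the median log2 value over its probesets, so that a difference of 1 is a doubling of signal. The samples were 5 keratoacanthomas, squamous skin tumours built of keratinocytes, and 6 pieces of normal skin. Every tumour came from mice with both the K14-Cre and the Zmiz1 transgene. Normal skins 1 and 2 were double transgenic too, 3 and 4 carried K14-Cre alone, and 5 and 6 carried Zmiz1 alone. In K14-Cre the keratin 14 promoter, active in basal keratinocytes, drives Cre recombinase. Which part of Zmiz1 the transgene holds was not given in the sources used here. Each group carries at least 1 of these transgenes, and ages, strain and the sharing of animals between pieces were not given in the sources used here. P-values therefore describe the scatter of the pieces, some of which may share a mouse.

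Connexin proteins assemble in rings as hemichannels in the plasma membrane, and hemichannels of neighbouring cells dock to form a pore that passes ions and small metabolites. In resting hairy skin connexin 43 is the most widespread epidermal connexin, while connexin 26 and connexin 30 are sparse between the follicles, are found in hair follicles and are induced in wounded or hyperproliferative epidermis. Connexin 31.1 belongs to differentiating keratinocytes. Inherited mutations of GJB2, GJB6 and GJA1 cause disorders of skin, hair and hearing or of the face and limbs.

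Array medians over all probesets lay between 6.22 and 6.27, and the number of arrays limits the precision of every value. Arrays correlated at 0.943 to 0.960 within the tumours and 0.890 to 0.950 within normal skin. Zmiz1 stood at 8.03 to 8.27 in tumours and 7.15 to 7.91 in normal skins (log2 difference 0.65, limma adjusted p = 0.0045), and its mean did not separate normal skin with the transgene from that without it (7.39 in double transgenic, 7.53 in K14-Cre only and 7.57 in Zmiz1 only).

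Gjb2 was higher in every keratoacanthoma than in every normal skin, and the size of that difference depended on which normal skin it was set against. Its log2 level was 10.05, 9.90, 9.87, 10.002 and 10.04 in keratoacanthomas 1 to 5. In normal skins 1 to 6 it was 9.46, 6.77, 9.40, 6.86, 6.86 and 7.12. The tumours were nearly equal to each other, whereas the normal skins split into a pair close to the tumours (1 and 3) and 4 far below them. Means were 9.97 ± 0.08 (SD, n = 5) in tumours and 7.74 ± 1.31 (n = 6) in normal skin, a log2 difference of 2.23 (SE 0.50) or 4.69-fold, past the threshold of 0.05 (limma, adjusted p = 0.0053 over all genes; exact two-sided permutation p = 0.0043, the smallest that 5 against 6 arrays can give). By p-value Gjb2 ranked 2344 of the 20352 genes. Over all genes 14.5% were called higher and 10.8% lower in this comparison, and among the 4 connexin genes 1 was called higher and none lower. An unadjusted limma p below 0.05 held for 2 of the 4, Gjb2 and Gjb5, the latter ranking 6184 of the 20352 genes by p-value. Groups did not overlap for 1 of the 4, where 9.66% of all genes lay higher in every tumour and 6.31% lower.

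All 4 probesets of Gjb2 were raised, at adjusted p below 0.05 over the 211507 probesets, where 8.29% were called higher and 6.98% lower. Their log2 differences were 2.35 for probeset 10415605, 2.68 for 10420363, 3.19 for 10420364 and 1.23 for 10420365. The brightest, 10420363, read 11.7 to 11.8 in the 5 tumours, 11.7 in both normal skin 1 and normal skin 3, and 7.49 to 8.35 in the remaining 4 skins. On this probeset the pair of normal skins was thus close to the tumours. On 10420364 the tumours read 11.04 to 11.24, the same pair 10.7 and 10.7, and the remaining skins 6.22 to 7.07.

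Gjb6, which neighbours Gjb2 on chromosome 14, did not differ at the gene level set by the median, yet 3 of its 5 probesets were raised. The median was 5.51, 5.44, 5.25, 5.42 and 5.61 in keratoacanthomas 1 to 5 and 4.99, 5.49, 6.30, 4.87, 5.05 and 5.61 in normal skins 1 to 6. The groups overlapped, with normal skin 3 above all tumours. The log2 difference was 0.06 (SE 0.22, 95% interval -0.41 to 0.53, limma adjusted p = 0.87). The median fell on different probesets in the pieces: on 10420371 in keratoacanthoma 1 and normal skins 1 and 3, on 10420368 in the other 4 tumours, and on 10420367 in the other 4 skins. Its brightest probeset in tumours, 10420367, read 9.08, 9.70, 9.18, 9.38 and 9.57 in the 5 tumours and 8.29, 5.49, 8.04, 4.87, 5.05 and 5.61 in the 6 normal skins. All tumours were above all normal skins, and normal skins 1 and 3 again stood apart from the other 4. This probeset differed by 3.15 (SE 0.61, adjusted p = 0.0048), 10420368 by 1.72 (adjusted p = 0.0041) and 10420369 by 1.47 (adjusted p = 0.0025). Of these 10420368 was dim, with means of 5.29 in tumours and 3.57 in normal skins. Dim means a mean below the 25th percentile of probeset means, 4.96. The other two, 10420370 and 10420371, differed by 0.47 and -0.27 without passing (adjusted p = 0.15 and 0.46). With the mean over the 5 probesets in place of the median, Gjb6 stood at 6.18 to 6.59 in tumours and 4.55 to 5.69 in normal skin, a log2 difference of 1.31 (SE 0.19, limma adjusted p = 0.00024). Without dim probesets it was 1.83 (SE 0.29, adjusted p = 0.0005). The call for Gjb6 is thus decided by how its probesets are summarised.

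**Figure D1:**
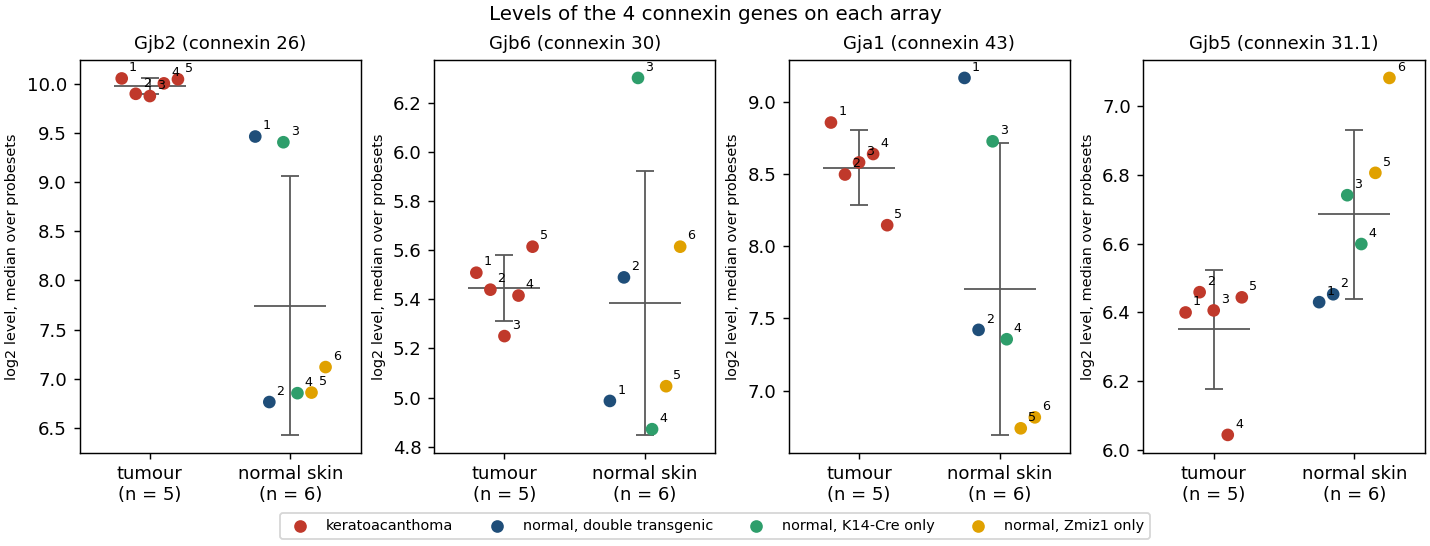
Log2 level (vertical axis, median over probesets; each panel has its own range) of Gjb2, Gjb6, Gja1 and Gjb5 on each array, numbered as in the text and coloured by genotype, with the group mean and SD as bars. Gjb2 lies at 9.87 to 10.05 in the tumours, at 9.46 and 9.40 in normal skins 1 and 3, and at 6.77 to 7.12 in the other 4 skins; Gja1 splits the same skins.

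Gja1, the most widely expressed connexin gene of skin, was as high in normal skins 1 and 3 as in the tumours and low in the other 4. Its level was 8.86, 8.50, 8.58, 8.64 and 8.15 in keratoacanthomas 1 to 5 and 9.17, 7.42, 8.73, 7.36, 6.74 and 6.82 in normal skins 1 to 6. Normal skin 1 was above every tumour, so the groups overlapped. Means of 8.54 ± 0.26 (n = 5) and 7.70 ± 1.01 (n = 6) gave a log2 difference of 0.84 (SE 0.40, 95% interval -0.01 to 1.69), which did not pass (limma adjusted p = 0.14, exact permutation p = 0.10). None of its 4 probesets passed (smallest adjusted p = 0.16, for 10363176). The differences were 0.34 for 10363174, 0.97 for 10363175, 1.26 for 10363176 and 0.11 for 10363177. The last was the brightest, at 11.6 to 12.1 on all 11 arrays. Without normal skin 1 alone, Gja1 passed, at 1.13 (limma adjusted p = 0.019). That skin was the highest normal skin for Gja1, so leaving it out must raise the difference, and no conclusion is drawn.

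The promoters of the 3 genes that were high in the same pieces, wholly or by a probeset, are shown because Gjb2 and Gjb6 are neighbours on chromosome 14. They are the 250 bases before the RefSeq start site in GRCm38.p6, a later build than that of the array data, read 5′ to 3′ on the gene's strand. Capitals mark matches to the GC box GGGCGG and to the AP-1 motif TGANTCA on either strand.
Gjb2, chr14:57104703-57104952, minus strand: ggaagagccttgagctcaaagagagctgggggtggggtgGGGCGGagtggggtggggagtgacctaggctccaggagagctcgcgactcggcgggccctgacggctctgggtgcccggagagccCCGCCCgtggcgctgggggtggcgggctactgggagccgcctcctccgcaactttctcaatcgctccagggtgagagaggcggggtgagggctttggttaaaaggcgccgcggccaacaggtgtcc
Gjb6, chr14:57133612-57133861, minus strand: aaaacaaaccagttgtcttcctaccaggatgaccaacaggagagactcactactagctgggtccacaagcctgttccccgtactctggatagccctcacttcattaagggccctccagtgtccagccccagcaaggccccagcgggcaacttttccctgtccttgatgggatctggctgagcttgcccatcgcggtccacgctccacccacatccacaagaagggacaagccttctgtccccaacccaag
Gja1, chr10:56377050-56377299, plus strand: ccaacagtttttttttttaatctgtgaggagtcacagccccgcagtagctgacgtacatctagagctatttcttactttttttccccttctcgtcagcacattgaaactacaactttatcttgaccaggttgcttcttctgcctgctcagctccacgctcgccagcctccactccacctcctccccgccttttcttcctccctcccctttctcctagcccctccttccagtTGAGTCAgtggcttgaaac
The Gjb2 window held 69.2% G and C, above 89.6% of 32851 such windows, whose median was 52.4%. The Gjb6 window held 56.8%, that of Gja1 50.0% and that of Gjb5 54.4%. Gjb2 had 2 matches to GGGCGG, starting 211 and 126 bases before the start site, and the other 3 genes had none; 32.7% of all windows held at least 1. Gja1 had 1 match to TGANTCA, 19 to 13 bases before the start site, and the other 3 had none; 6.7% of all windows held one. This match shares its first 2 bases with the end of an E box match (CANNTG), which 66.2% of all windows held and which the Gjb2 and Gjb6 windows held once each. Searches for CCAAT (33.8% of windows) and TATAAA (12.4%) each matched the Gjb5 window once and none of the other 3. The matches are letters in these windows and were not tied to any measured binding.

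Gjb5, a connexin gene of suprabasal keratinocytes, was lower on average in tumours, without passing. It stood at 6.40, 6.46, 6.41, 6.04 and 6.44 in keratoacanthomas 1 to 5 and at 6.43, 6.45, 6.74, 6.60, 6.81 and 7.08 in normal skins 1 to 6. The 2 double transgenic skins lay among the tumours and the 4 single transgenic skins above all of them. The log2 difference was -0.33 (SE 0.13, 95% interval -0.62 to -0.05) and did not pass (limma adjusted p = 0.083, exact permutation p = 0.022). Of its 4 probesets only 10516491 passed, reading 6.26 to 6.57 in tumours and 6.95 to 7.57 in normal skins, a log2 difference of -0.73 (SE 0.15, adjusted p = 0.0071). The others differed by -0.47, 0.02 and 0.42.

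**Figure D2:**
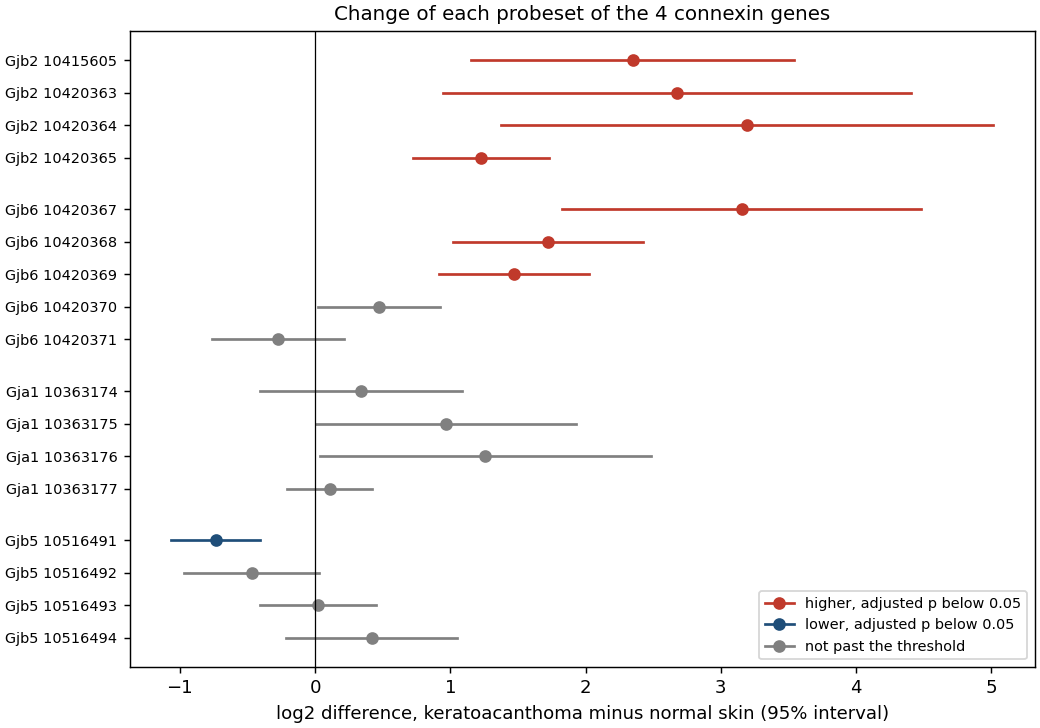
Log2 difference between keratoacanthoma and normal skin (horizontal axis) for each of the 17 probesets, with unadjusted 95% intervals; colours mark the adjusted p. All 4 probesets of Gjb2 and 3 of 5 of Gjb6 lie to the right past the threshold, none of Gja1 passes, and 1 of Gjb5 lies to the left.

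Because a level cannot be set against that of another probe, the genes were compared by their change only, as the difference between 2 genes within each array, over 6 pairs. The change of Gjb2 exceeded that of Gjb5 by 2.56, that of Gjb6 by 2.17 and that of Gja1 by 1.39 on the log2 scale (exact permutation, adjusted over the 6 pairs p = 0.013, 0.026 and 0.013). The lead of Gjb2 over Gjb6 was 1.05 and did not pass with the mean over probesets (adjusted p = 0.10), nor did it pass without keratoacanthoma 1, 3 or 4 (adjusted p = 0.057 each, with changes of 2.16, 2.15 and 2.15). The pairs Gjb5 and Gja1 (-1.17, adjusted p = 0.097), Gjb6 and Gja1 (-0.78, 0.15) and Gjb5 and Gjb6 (-0.40, 0.15) did not pass. Without normal skin 1 the first 2 of these passed (-1.52 and -1.15, adjusted p = 0.019 and 0.012). Normal skin 1 was the lowest normal skin for both (-2.74 and -4.18), so leaving it out must enlarge these differences. Gjb5 and Gjb6 passed without normal skin 3 (-0.57, adjusted p = 0.036), likewise the lowest normal skin for that pair (0.44). They also passed with the mean over probesets (-1.50, adjusted p = 0.0087). The pair of Gjb6 and Gja1 had the opposite sign with the mean over probesets (0.64, adjusted p = 0.058).

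The normal skins high in Gjb2 and Gja1 were those high in a marker list of the hair follicle, and they were of different genotypes. Over 20 measured hair follicle genes, chiefly hair keratins, the mean log2 level was 9.47 in normal skin 1, 9.21 in normal skin 3 and 5.93 to 5.99 in the other 4, and among tumours 8.55 in keratoacanthoma 4 and 6.17 to 6.51 in the rest. Of these 20 genes 1, the trichohyalin gene Tchh, was called higher in tumours and none lower. Tchh, measured by 1 probeset, read 11.3 to 11.6 in all 5 tumours. It read 11.9 and 11.8 in normal skins 1 and 3 and 6.44 to 7.26 in the other 4 skins. Its log2 difference was 2.98 (limma adjusted p = 0.040, exact permutation p = 0.091). The normal skins split as they did for Gjb2. Skins 1 and 3 lay above every tumour for Tchh, however, and below every tumour for Gjb2. Normal skins 1 and 3 were the highest 2 of the 6 in 10.2% of all genes, and among the 4 connexin genes this held for Gjb2 and Gja1, and for Gjb6 by the mean over probesets (5.69 and 5.599, the others at most 5.12) though not by its median. On gene medians their mean lay above that of the other 4 skins by 2.53 for Gjb2, more than in 99.7% of genes, by 1.86 for Gja1 (99.5%), by 0.39 for Gjb6 and by -0.15 for Gjb5. In keratoacanthoma 4 Gjb2 (10.002) and Gja1 (8.64) lay within the range of the other tumours. The part of hair follicle content in the level of normal skin was not tested.

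**Figure D3:**
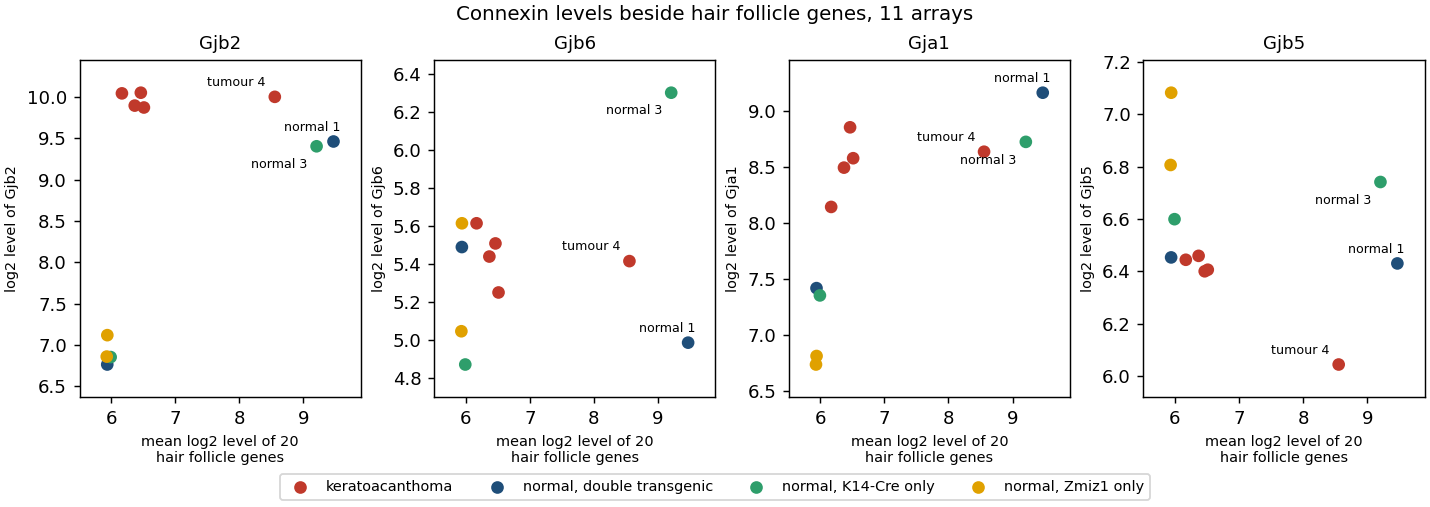
Log2 level of each connexin gene (vertical axis) against the mean log2 level of 20 hair follicle genes (horizontal axis) on 11 arrays, coloured by group and genotype. Normal skins 1 and 3 lie at 9.47 and 9.21 on the horizontal axis with Gjb2 and Gja1 near the tumours, while 4 tumours have both genes high at hair values of 6.17 to 6.51.

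Normal skins 1 and 3 were then left out, a choice made after the data were seen. They are the highest 2 normal skins for Gjb2 and Gja1, so that leaving them out must raise these differences and narrow the spread; the values are a description and no test is drawn from them. Against the other 4 skins (6.90 ± 0.15, SD) Gjb2 was 8.42-fold higher in tumours, a log2 difference of 3.07. Gja1 differed by 1.46, Gjb5 by -0.38 and the median of Gjb6 by 0.19. Without keratoacanthoma 4 as well, Gjb2 differed by 3.07 and Gja1 by 1.44. The probeset 10420367 of Gjb6 differed by 4.12 without the pair of skins, and 10363176 of Gja1 by 2.11.

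The cell content of the pieces differed as well. A list of 13 general keratinocyte genes averaged 9.15 to 9.23 in tumours and 8.36 to 9.003 in normal skins, without overlap, with 5 of the 13 called higher and 1 lower. Keratin 14 (Krt14), at 9.64 or more on every array, rose by 1.19 (adjusted p = 8.8e-05) and keratin 5 (Krt5) differed by 0.25 (adjusted p = 0.095), so that the labelled epithelium was present in all pieces. All 17 skeletal muscle genes fell in the tumours, the list averaging 5.70 to 7.15 there and 10.2 to 11.5 in normal skin. Fat cell genes fell in 8 of 11 (6.05 to 6.94 against 7.46 to 8.57), fibroblast genes in 5 of 13 with 1 higher (7.42 to 8.31 against 8.33 to 8.91) and smooth muscle and pericyte genes in 6 of 11 (6.30 to 6.62 against 6.96 to 7.41). Endothelial genes were higher in 2 and lower in 3 of 12 (6.22 to 6.54 against 6.26 to 6.51) and leukocyte genes higher in 2 and lower in 4 of 13 (6.61 to 7.43 against 6.58 to 7.17). Sebaceous gland genes fell in 5 of 12 (6.30 to 7.13 against 7.11 to 7.59), and Schwann cell and melanocyte genes in 4 of 9 (5.06 to 5.73 against 5.68 to 6.69). Fewer cells of a type and less RNA per cell cannot be told apart in such pieces. Of the 12 genes of stressed epidermis all rose (10.7 to 11.2 against 6.53 to 8.27), and of 10 genes of resting suprabasal cells 4 rose and 4 fell (9.79 to 10.2 against 9.79 to 10.3).

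Set against the keratinocyte list within each array, also a choice made after the data were seen, Gjb2 and Gjb5 each separated the groups, in opposite directions. The list itself was higher in every tumour than in every normal skin (9.15 to 9.23 against 8.36 to 9.003). Subtracting it thus moves every difference downward. Before this step Gjb5 differed by -0.335, with overlapping groups (limma adjusted p = 0.083). Relative to that list Gjb2 was 0.71 to 0.83 in tumours and -1.98 to 0.58 in normal skins, a difference of 1.84 (exact permutation, adjusted over 4 genes p = 0.0087). Gjb5 was -3.13 to -2.69 in tumours and -2.57 to -1.86 in normal skins, a difference of -0.73 (exact permutation, adjusted p = 0.0087). Gja1 differed by 0.45 (exact permutation, adjusted p = 0.35). Gjb6 differed by -0.33 on its median, which falls on different probesets in the pieces (exact permutation, adjusted p = 0.35), and by 0.92 on the mean over probesets, with tumours at -3.04 to -2.62 and normal skins at -4.28 to -3.22 (exact permutation, adjusted p = 0.0058).

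Normal skin of the tumours' own genotype was the narrower comparison, because it holds both transgenes on each side. It rested on normal skins 1 and 2, which lay far apart for Gjb2 (9.46 and 6.77) and Gja1 (9.17 and 7.42). In a model of 4 groups Gjb2 differed by 1.86 (SE 0.68, 95% interval 0.37 to 3.35) and did not pass (limma adjusted p = 0.082, unadjusted p = 0.019). Gja1 differed by 0.25, Gjb6 by 0.21 and Gjb5 by -0.09 (adjusted p = 0.73, 0.69 and 0.72). On gene medians none of the 4 genes was called, where 10.6% of all genes were called higher and 6.93% lower. Gjb6 passed with the mean over probesets (0.99, limma adjusted p = 0.015) and without dim probesets (1.59, adjusted p = 0.019). Its call was thus decided by the summary of its probesets here too. The share of all genes with an unadjusted limma p below 0.05 was not counted, so the unadjusted p of Gjb2 is not read as a result. Each fit without 1 normal skin leaves 1 skin of its genotype, so only differences are given for these fits. Gjb2 differed by 3.21 without normal skin 1, the higher of the pair, with normal skin 2 alone assumed to vary like the other groups. Without normal skin 2 it was 0.51. Without normal skin 3 or 4 it remained 1.86, because these skins enter the spread but not the difference.

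Among normal skins none of the 4 genes passed a test of genotype. Gjb5 read 6.43 and 6.45 in double transgenic, 6.74 and 6.60 in K14-Cre and 6.81 and 7.08 in Zmiz1 skin. Gjb5 did not pass the F test among the 3 genotypes (adjusted p = 0.44). With n = 2 each, no order of genotypes is read from these values. Mean Gjb2 was 8.11 in double transgenic skin, 8.13 in K14-Cre skin and 6.99 in Zmiz1 skin (n = 2 each), and mean Gja1 was 8.29, 8.04 and 6.78 in the same order. For Gjb2 and Gja1 the genotypes stood in an order that their spread does not bear out, since both the double transgenic and the K14-Cre pair held 1 high and 1 low piece. Mean Gjb6 was 5.24, 5.59 and 5.33, and mean Gjb5 6.44, 6.67 and 6.94. Between double and single transgenic skin the log2 differences were 0.55 for Gjb2 (95% interval -0.99 to 2.10), 0.89 for Gja1 (-0.10 to 1.87), -0.22 for Gjb6 (-0.94 to 0.50) and -0.37 for Gjb5 (-0.70 to -0.03), with limma adjusted p from 0.47 to 0.85. Of the 4 genes 0 passed limma in this comparison, where 0.0147% of all genes were called. An unadjusted limma p below 0.05 held for 1 of the 4 (Gjb5, 0.037) and for 2071 of all 20352 genes. In the F test among the 3 normal genotypes 0 passed, where 0.00983% of all genes were called. Its unadjusted p was below 0.05 for 2 of the 4 (Gja1, 0.029, and Gjb5, 0.049) and for 2320 of all genes.

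Gja3, the neighbour of Gjb2 on its other side, was not called. On chromosome 14 the order in RefSeq is Gja3, Gjb2, Gjb6. Gja3, a connexin gene known from the lens, differed by -0.16 (limma adjusted p = 0.27), with probesets at -0.21 and -0.11.

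Across the 15 connexin genes of the array 1 was called higher, which was Gjb2, 1 was called lower and 13 did not pass, against 14.5% higher and 10.8% lower over all genes. Their median log2 difference was -0.07, that of all genes -0.04. The gene called lower was listed as Gje1, at 4.42 ± 0.13 in tumours and 5.13 ± 0.28 in normal skin, a log2 difference of -0.70 (SE 0.14, limma adjusted p = 0.002). Its identity is uncertain. Of its 6 probesets 3 were annotated with a name that RefSeq now gives as Gje1, and they differed by -0.25, -0.34 and -0.21. The other 3 were annotated Gje1 directly, which RefSeq also lists as a former name of Gjc3, and they differed by -1.56, -0.43 and -0.54. Only the first of these, 10534961, passed (adjusted p = 0.0005). With only the double transgenic skins as reference none of the 15 connexin genes was called, Gjb2, Gje1 and Gja4 included. In the model of 4 groups, against double transgenic skin, Gja4, a connexin gene of vessel walls that differed by -0.18 from all normal skins (adjusted p = 0.28), was lower (log2 difference -0.42, SE 0.13, limma adjusted p = 0.047) and so was Panx1 (-0.70, SE 0.22, adjusted p = 0.049). The other 10 connexin genes outside the 4 ranged from -0.20 (Gja10) to 0.27 (Gjc1), all with adjusted p of at least 0.23. The pannexins, channel proteins of another family with a like membrane layout, were not called against all normal skins, at -0.25 for Panx1, 0.13 for Panx2 and -0.27 for Panx3 (limma adjusted p = 0.39, 0.51 and 0.18).

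**Figure D4:**
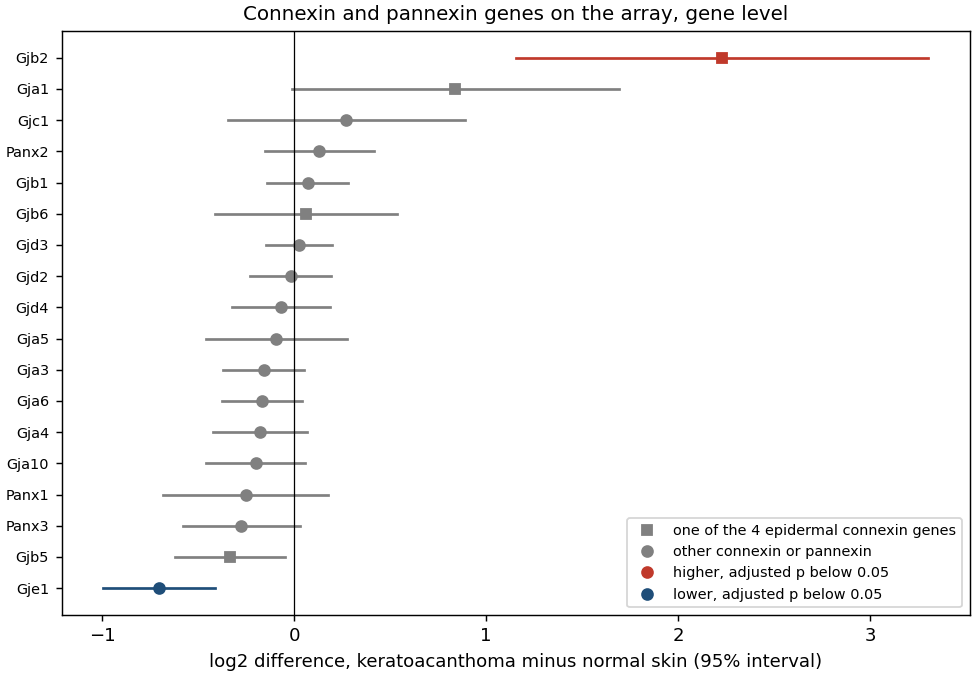
Log2 difference between keratoacanthoma and normal skin (horizontal axis, unadjusted 95% intervals) for the 15 connexin and 3 pannexin genes of the array, squares marking the 4 epidermal genes. Gjb2 is the only one past the threshold on the higher side, at 2.23, and Gje1 the only one on the lower side, at -0.70.

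Among 23 measured genes for partners, scaffolds, kinases and turnover of connexins 4 were higher and 3 lower in tumours, shares near the 14.5% and 10.8% of all genes, so that the count itself does not set the list apart. Tjp1, the scaffold ZO-1 that binds the tail of connexin 43, rose by 0.67 (SE 0.14, limma adjusted p = 0.0026). The casein kinase gene Csnk1d rose by 0.72 (adjusted p = 0.0074), the beta-catenin gene Ctnnb1 by 0.46 (0.025) and the membrane glycoprotein gene Bsg by 0.93 (0.00035), which was 0.30 with the mean over probesets (0.017). Cav1, the coat protein of caveolae, fell by 1.03 (adjusted p = 0.00084), the N-cadherin gene Cdh2 by 0.53 (0.013) and the ubiquitin ligase gene Nedd4 by 0.41 (0.035). After quantile normalization 2 of the 23 were higher, Csnk1d (0.48, adjusted p = 0.051) and Ctnnb1 (0.20, 0.37) no longer passing, and Cdh2 (-0.44, 0.052) did not pass either. After centring each array on its median 7 of the 23 were higher and Nedd4 did not pass (-0.35, 0.071); over all genes that scaling moved the share of higher among called genes from 57.4% to 67.5%. The direction of these 7 genes was the same under both scalings. The median of the 23 was 0.15.

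Among all genes above the 25th percentile of mean level, the likeness to each connexin gene was taken as the correlation of deviations from the group means over the 11 arrays, and normal skins 1 and 3 hold the largest deviations of Gjb2 and Gja1. For Gjb2 it was highest for Tchh, encoding trichohyalin of the inner root sheath and itself in the hair follicle list (r = 0.99), the nucleoside kinase gene Nme1 (0.99) and the kinetochore gene Knl1 (0.98). For Gja1 it was highest for the condensin gene Ncapd2 (0.98), the lamin gene Lmnb1 (0.97) and the kinetochore gene Spc24 (0.97). For Gjb6 the genes were Map3k15, R3hdml and Snn (0.91, 0.90 and 0.90), and for Gjb5 Gm9866, Rragc and Il17rd (0.95, 0.93 and 0.91). Between Gjb2 and Gja1 the same measure was 0.91 and between Gjb2 and Gjb5 -0.21. The values of Gjb6 rest on its median, which falls on different probesets in the pieces. Gjb2 and Gjb6 gave 0.38 with that median, 0.87 with the mean over probesets and 0.97 with probeset 10420367, and Gja1 and Gjb6 gave 0.20, 0.79 and 0.88 in the same order.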

How the data were processed

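Total RNA of 11 snap-frozen mouse tissue pieces was amplified and hybridised to single-colour whole-transcript arrays, per the labels. The deposited table held log2 values per probeset (241576 probesets, 0.994 to 15.2, none missing), for which the submitters' processing notes name RMA, Partek and build mm9, without versions or settings. The deposited normalization was kept, and RMA's quantile step forces arrays towards 1 distribution. Of the probesets, 212097 named 1 gene, 4475 several and 25004 none; those naming 1 gene were used after dropping 590 with identical values within a gene, 2742 symbols were updated through RefSeq, and the gene level was the median over probesets (20352 genes).

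Tests used limma 3.58.1 in R 4.3.3 (lmFit, eBayes, Benjamini-Hochberg over all genes or probesets, threshold 0.05), tumour against normal skin as 2 groups and a model of 4 groups for the genotypes, and exact two-sided permutation tests for single values. The fits were tested on simulated data. Tables and figures used Python 3.11.15, pandas 2.3.3 and matplotlib 3.10.9. Promoters came from RefSeq (GRCm38.p6), where all 4 genes matched. Intervals are at 95%; dim means below the 25th percentile.

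The members and gene lists were chosen with earlier results of these data known. Named were the 4 genes, other connexins and pannexins past the threshold, up to 5 partner genes per direction, 3 most alike genes per member, and single markers; Gja3, Gja4, Panx1 against double transgenic skin, the extremes of the family and the 3 pannexins were named after their values were seen. Alternatives were other summaries, dim filters, scalings, variance models, weights for arrays, a block on the number in the titles, other references and each array left out. Added after seeing the data were the fits without normal skins 1 and 3 (with or without keratoacanthoma 4), the values relative to keratinocyte genes, and Gjb6 as a mean or 1 probeset in these and in the likeness.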

Additional observations from a re-analysis of the deposited data

Results flagged for a closer look

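Over 36 groups of values (18 connexin and pannexin genes, tumours and normal skins apart), 2 held a sample far from the others, where chance alone gives about 1 in 20. Gjb5 stood at 6.04 in keratoacanthoma 4, below the other 4 tumours at 6.40 to 6.46. Gjc1 stood at 4.75 in normal skin 3, below the other 5 normal skins at 5.69 to 6.23.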

How the results depend on the processing

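Gjb2 kept its direction under all alternatives run and its call in all but 1, with log2 differences of 2.03 to 2.57 (limma adjusted p 0.0008 to 0.014) when each array was left out and 2.10 (adjusted p = 0.015) with the replicate block; the title's numbers did not pair the samples, with correlations of same-numbered deviations of -0.18 to 0.10, and 1 of 5 tumours was most like its own number. With only double transgenic skin as reference it missed the threshold (1.86, adjusted p = 0.055), so that 0 of 4 members and 0 and 0 of 15 connexins were higher and lower. With only single transgenic skin Gjb5 (-0.46, adjusted p = 0.026) and Gja1 (1.14, 0.037) also passed and the median of Gjb6 turned to -0.013, so that 2 members were higher and 1 lower, and 2 and 2 connexins.

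With each array left out Gjb6 ran from -0.042 to 0.24, negative without normal skin 1, 4 or 5, Gja1 from 0.65 to 1.13, members called higher from 1 to 2 and connexins higher from 1 to 2 (2 without normal skin 1, where Gja1 joined), and partner genes lower from 2 to 5 (5 without normal skin 3). With the mean over probesets Gjb6 passed at 1.31 and without dim probesets at 1.83, giving 2 members and 2 connexins higher; without dim genes 0 connexins were lower. Partner genes higher numbered 2 after quantile normalization and 7 after centring. Without normal skins 1 and 3, or those and keratoacanthoma 4, Gja1 was 1.46 and 1.44. Normal skins 1 and 3 are the highest normal skins for Gjb2 and Gja1, so leaving them out must raise both differences. In these fits members and connexins higher were 2 and 2, and partner genes lower 6 and 5. Over all genes 13.9% and 13% were higher and 10.7% and 10% lower in the same fits. These counts are a description, and no test is drawn from them.

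Against double transgenic skin, leaving out each array gave 0.51 to 3.21 for Gjb2, -0.62 to 1.12 for Gja1 and -0.044 to 0.46 for Gjb6. Calls are not counted there, because each normal skin left out leaves 1 skin of its genotype. Gjb6 passed with the mean (0.99) or without dim probesets (1.59), with 1 member higher each; Gjb5 turned to 0.036 with the mean and Gja1 to -0.011 after quantile normalization. Without normal skins 1 and 3, or those and keratoacanthoma 4, Gjb2 was 3.21 and 3.20, Gja1 1.12 and 1.10, and Gjb6 -0.044 and -0.036.

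Among pairs, the mean over probesets gave 1.05 for Gjb2 minus Gjb6, -1.50 for Gjb5 minus Gjb6 and 0.64 for Gjb6 minus Gja1. Leaving out each array gave 1.95 to 2.59, -0.57 to -0.30 and -1.15 to -0.56 for these, and -1.52 to -0.92 for Gjb5 minus Gja1. Without normal skins 1 and 3 Gjb5 minus Gjb6 was -0.57, Gjb5 minus Gja1 -1.85 and Gjb6 minus Gja1 -1.27; without keratoacanthoma 4 too the last 2 were -1.75 and -1.24. With the replicate block 0 probesets of the members were lower (limma) and 5 higher. The causes of these shifts were not tested. Dim probesets of Gjb6 and the near-constant bright probeset of Gja1 limit their gene levels.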
